A study of Homo sapiens with 68 samples.

Results

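The RNA bound by hnRNP C was compared between TLC-CLIP libraries made from 5000 and from 50000 cells. In TLC-CLIP, living cells are irradiated with ultraviolet light so that proteins become covalently linked to the RNA they touch, 1 protein is pulled down with an antibody, and the short RNA pieces joined to it are sequenced. The comparison used 8 of the 68 samples of the series, chosen by their titles. They were the groups hnRNPc_5k_noPAGE and hnRNPc_5k_noPAGE_RecJ (4 libraries) and the groups hnRNPc_50k_noPAGE and hnRNPc_50k_noPAGE_RecJ (4 libraries), with 2 replicates in each group. The study asks how far the method still works as the number of cells is reduced and as steps are added or left out.

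All 8 libraries came from HEK293T, an established human embryonic kidney cell line, after crosslinking, with 0.005 U of RNase and the same hnRNP C antibody. All were made without the gel separation of protein-RNA complexes (noPAGE). RecJ in a title marks a digestion with an exonuclease that removes leftover adapter, which 2 of the 4 libraries at each cell number received. The cell-number field of the labels reads 50000 for the libraries titled 5k as well, so the cell numbers given here rest on the titles. No label says that replicates came from separate cultures, and p-values therefore measure the spread between these samples, which may be technical.

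hnRNP C is an abundant RNA-binding protein of the nucleus. It binds uridine-rich stretches of newly made transcripts, largely in introns, and is known for keeping cryptic exons out of mature mRNA. The mitochondrial genome, by contrast, is transcribed inside mitochondria from both of its strands, and encodes ribosomal RNAs, transfer RNAs and mRNAs of the respiratory chain.

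Each library is a list of peaks, which the file names attribute to the peak caller CLIPper. Each peak carries a gene identifier and a number read here as the reads over the peak. The files do not pair identifiers with gene names. Genes are therefore given by the hg19 positions from the first to the last of their peaks in these libraries, with the strand, and the transcript parts they cover were not annotated here. The unit used for a gene is reads per 1000000 listed reads (RPM), the summed read number of its peaks scaled to the total of the list. Overlapping peaks of 1 gene often repeat the same reads, so that sum also moves with how many overlapping peaks are listed. Each gene was therefore also measured with peaks less than 30 nt apart joined into clusters, every cluster counted once with its highest read number.

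The sizes of the lists did not separate the cell numbers. The 50k libraries held 441289, 471844, 379280 and 487908 peaks and the 5k libraries 464443, 460865, 389080 and 430772, in the order replicate 1 and 2 without RecJ, then replicate 1 and 2 with RecJ. The difference was -0.03 on the log2 scale (exact two-sided permutation within RecJ states, p = 0.889). How many reads were sequenced is unknown, and with it the depth. With 36 relabellings the smallest p this test can give is 0.0556, so it cannot pass 0.05. Peaks of 1 library were overlapped by at least 1 nt by a library of the other cell number and the same RecJ state in 44.9% ± 2.55 of cases (SD over 16 ordered pairs that share libraries). Between replicates the overlap was 45.5% ± 3.28 (SD over 8 ordered pairs).

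The libraries from fewer cells held a smaller share of reads in mitochondrial RNA. At 50k the share of listed reads on the mitochondrial genome was 13.2%, 13.0%, 14.1% and 13.0%. At 5k it was 9.10%, 9.46%, 9.08% and 9.45%. All 4 libraries of 5k cells thus lay below all 4 of 50k cells. The group means were 13.3% ± 0.529 and 9.27% ± 0.207 (SD, n = 4 each). The difference was -0.52 on the log2 scale, with an exact two-sided permutation p of 0.0556, the smallest possible here. This measure was chosen for testing after the data were seen. Counted by clusters, the share was 3.42% ± 0.152 and 2.29% ± 0.0631 (SD, n = 4 each), a difference of -0.58. A share of listed reads in these bulk libraries does not measure the amount of RNA per cell.

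The number of mitochondrial peaks did not follow the share of reads. It ranged from 137 to 152 at 50k and from 138 to 146 at 5k. The reads lay almost wholly on the plus strand, where the share was 13.3% at 50k and 9.23% at 5k. The minus strand held 0.0401% and 0.0382%.

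The share of mitochondrial reads in other libraries of the series made without the gel step gives a scale for these values. The 4 hnRNP C libraries titled 500 cells held 4.58% to 5.93%. The 2 hnRNP C libraries without crosslinking held 22.8% and 15.0%. In crosslinked 50k libraries of the other proteins the share was 24.2% and 24.5% for hnRNPA1, 6.82% and 7.39% for RBFOX2, and 2.04% and 1.78% for hnRNPI. Counted by clusters these were 5.72% and 5.66%, 3.98% and 4.18%, and 1.11% and 0.948%. RBFOX2 then lay above hnRNP C at 50k (3.31% to 3.64%), so the order of these 2 proteins depends on the measure. The hnRNP C libraries without crosslinking held 7.20% and 4.20% by clusters. The hnRNP C libraries of both cell numbers thus lay below those without crosslinking, and whether uncrosslinked RNA has a part in the difference was not tested.

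**Figure D1:**
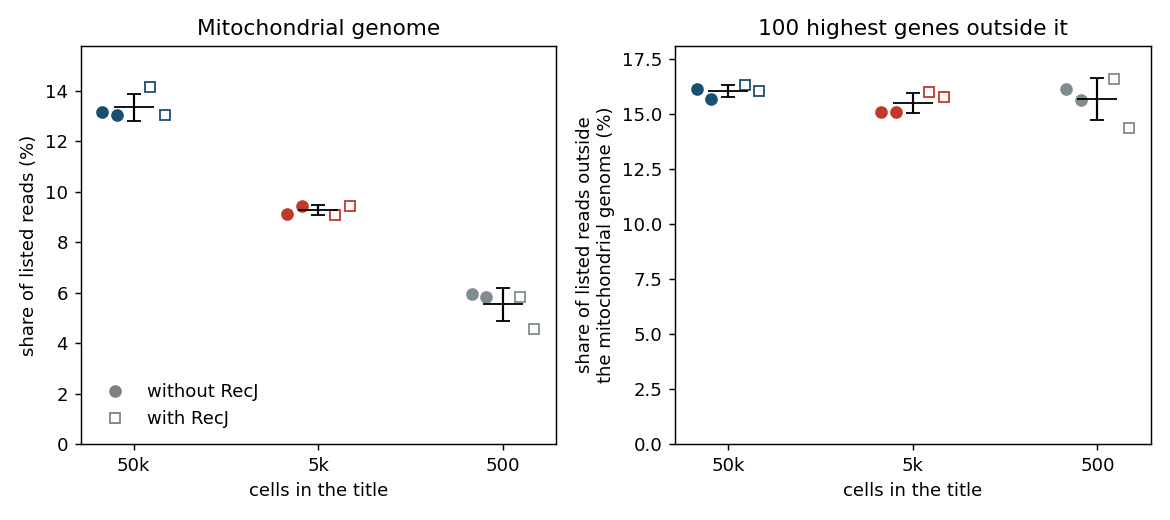
Left, percent of listed reads on the mitochondrial genome (y axis) by the cell number in the title (x axis); right, percent of the reads outside the mitochondrial genome held by the 100 highest genes there. Points are hnRNP C libraries, filled without RecJ and open with RecJ, and the black mark and bars are the mean ± SD of 4 libraries. In the left panel the libraries of 5k cells lie between 9.08% and 9.46%, below those of 50k cells at 13.0% to 14.1% and above those of 500 cells at 4.58% to 5.93%.

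The lower share ran through most mitochondrial genes. Of 20 mitochondrial genes tested, 14 were lower at 5k and 0 were higher, with a median difference of -0.53 on the log2 scale (limma with the RecJ state as a block, Benjamini-Hochberg adjusted p below 0.05 over all 11477 genes tested). Over all genes 0.863% were lower by the same rule, and their median difference was 0.05. All 14 lay among the 17 plus-strand genes, and none of the 3 minus-strand genes passed; by clusters 15 of 21 were lower, 1 of them among 4 minus-strand genes. Without RecJ 13 of 20 were lower, and with RecJ 10 of 20. Mitochondrial genes share their libraries and part of their transcripts, and are not independent of each other.

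One gene dominated these reads. ENSG00000210082.2, at chrM:1704-2900 on the plus strand, held 119273, 117831, 128862 and 117016 RPM at 50k, and 80657, 83569, 80618 and 84779 at 5k. The groups did not overlap. The means were 120745 ± 5491 and 82406 ± 2101 (SD, n = 4 each), and the difference was -0.55 (SE 0.03) on the log2 scale. Counted by clusters the difference was -0.61 (SE 0.02). By summed reads the gene held 90.5% of the mitochondrial reads at 50k and 88.9% at 5k. It had 47 listed peaks on average, and reads repeated by overlapping peaks count more than once in these percentages. They were not taken by clusters.

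The next most abundant mitochondrial gene, at chrM:684-1494 on the same strand, changed less. It held 7641, 7840, 7706 and 8129 RPM at 50k and 7305, 7539, 7028 and 5922 at 5k. Each 5k library lay below each 50k library, and the difference was -0.18 on the log2 scale with a limma adjusted p of 0.0194 over all genes. Counted by clusters it was -0.35. By summed reads, the ratio of the dominant gene to this gene was 15.6, 15.0, 16.7 and 14.4 at 50k, against 11.04, 11.1, 11.5 and 14.3 at 5k. The mean ratios were 15.4 ± 0.989 and 11.98 ± 1.57 (SD, n = 4 each; exact two-sided permutation p = 0.0556). The highest 5k library, replicate 2 with RecJ, lay close to the lowest 50k library, and the other 3 lay well below.

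The largest change among mitochondrial genes was at the gene at chrM:1604-1672, a 69 nt span on the plus strand. It held 44.1, 37.6, 56.0 and 43.1 RPM at 50k and 19.3, 15.2, 20.6 and 28.7 at 5k, a log2 difference of -1.09. Its single highest peak was also lower, at 14.4 to 22.04 against 6.01 to 9.57 RPM. The gene at chrM:10788-11822 held 610, 687, 574 and 696 at 50k and 361, 364, 305 and 446 at 5k, a difference of -0.80. At the gene at chrM:8616-9174 the values were 369, 373, 368 and 350 against 214, 245, 261 and 240, a difference of -0.61. In these 3 genes the groups did not overlap.

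The 6 mitochondrial genes that did not pass were of low share or on the minus strand. The minus-strand gene at chrM:14264-14538 held 303, 381, 369 and 365 RPM at 50k and 281, 289, 313 and 407 at 5k, so the groups overlapped, and its difference was -0.15 with a limma adjusted p of 0.255. By clusters the difference was -0.39 and passed. The minus-strand gene at chrM:5827-5859 held 15.5 to 37.6 at 50k and 21.3 to 54.6 at 5k. The other 4, at chrM:583-649, chrM:3232-3277, chrM:10503-10668 and chrM:15967-16002, all had means under 100 RPM.

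**Figure D2:**
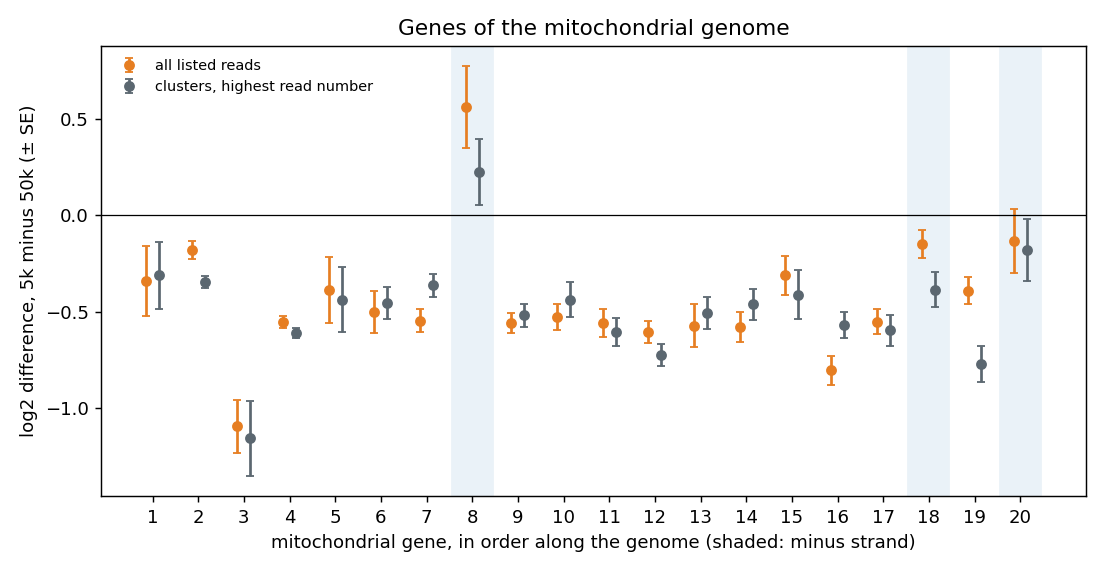
Log2 difference in read share, 5k minus 50k (y axis), of the 20 mitochondrial genes tested, in order along the genome (x axis), with minus-strand genes shaded. Points are limma estimates and bars are standard errors, orange by summed reads and grey by clusters. By summed reads the dominant gene, the fourth, lies at -0.55. The next most abundant gene, the second, lies at -0.18, and the lowest, the third, at -1.09.

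Outside the mitochondrial genome, most called genes were higher at 5k when shares were taken of all listed reads. Of 11477 genes tested, 685 differed (5.97%), of which 586 were higher (5.11%) and 99 lower (0.863%), 85 of these outside the mitochondrial genome. The changes were small: the median was 0.29 for the higher genes and -0.46 for the lower ones on the log2 scale, and 36 of 586 and 23 of 99 exceeded 1.5-fold. In 1413 genes (12.3%) the groups did not overlap.

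The balance of directions rested on the scaling. A share of all listed reads rises for every other gene when the mitochondrial share falls. With shares taken of the reads outside the mitochondrial genome, 353 of 11673 genes differed, 179 higher and 174 lower (1.49% lower), and 274 of the 685 remained. The percent of called genes that were higher went from 85.5% to 50.7%, and was 66.7% with each library centred on its median gene. Counted by clusters, 101 genes differed, 59 higher and 42 lower, of which 15 were mitochondrial, and 92 of the 685 remained. The number also depended on single libraries: it was 318 without 5k replicate 1 (no RecJ), 372 without 50k replicate 1 (no RecJ), 446 without 5k replicate 1 with RecJ, 450 without 50k replicate 1 with RecJ and 451 without 50k replicate 2 (no RecJ).

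**Figure D3:**
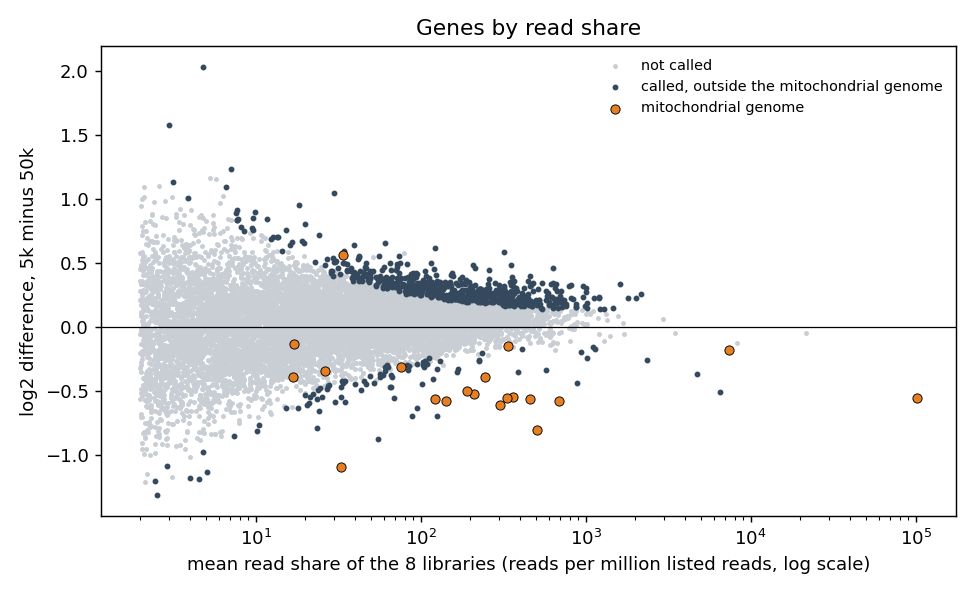
Log2 difference in read share, 5k minus 50k (y axis), against mean read share of the 8 libraries in RPM on a log axis (x axis), with 1 point for each of the 11477 genes tested. Called genes outside the mitochondrial genome are dark and mitochondrial genes are orange; the 586 called higher crowd just above the genes not called, with a median of 0.29, and the dominant mitochondrial gene stands alone at the right at -0.55.

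The 12 genes named as higher were those with the largest change among the 494 that were called, reached 20 RPM on average and did not overlap between groups. All 12 also passed with totals without the mitochondrial genome, and 5 passed by clusters, where all 12 kept their sign. ENSG00000132613.10, at chr16:70695512-70712313 on the minus strand, passed under both. It held 99.3, 89.7, 98.9 and 98.3 RPM at 50k and 161.0, 131, 161 and 144 at 5k. Every 5k library exceeded every 50k library, and the difference was 0.62 (SE 0.08) on the log2 scale, with a limma adjusted p of 1.02e-05. The 500-cell libraries held 140 to 169.

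Of the other genes named as higher, 4 passed by clusters. The gene at chr22:38031362-38062623 (plus strand) had 17.3, 16.4, 17.3 and 21.0 RPM at 50k and 31.5, 29.7, 27.1 and 32.6 at 5k. Of its reads, 79.8% were also listed under another gene, so they cannot be assigned to it alone. The gene at chr21:37758635-37789079 (plus) had 34.0, 32.2, 26.9 and 29.6 against 53.9, 47.8, 41.1 and 50.7. Both were more than 1.5-fold higher on average at 5k. The gene at chr6:31749661-31763136 (minus) had 54.4, 50.0, 69.6 and 65.2 against 84.1, 84.9, 91.0 and 90.9. The gene at chr9:136283568-136324397 (plus) had 32.2, 38.3, 28.9 and 37.2 against 50.1, 47.6, 45.8 and 54.7.

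Another 6 genes with spans of over 1 kb were called by summed reads but not by clusters. The most abundant of them, at chr6:31803208-31804963 on the plus strand, held 267, 228, 254 and 269.5 RPM at 50k and 361, 335, 456 and 383 at 5k. Its difference was 0.58 by summed reads and 0.40 by clusters, where the limma adjusted p was 0.0522. The gene at chr7:66314597-66321750 (plus) held 47.5 ± 11.5 and 73.8 ± 5.998 (SD, n = 4 each), with a cluster difference of 0.57 and a limma adjusted p of 0.0679.

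Among the genes named, the largest increase by summed reads was at a short gene and moved with the number of overlapping peaks. ENSG00000200795.1, at chr12:120730963-120731040 on the minus strand, spans 78 nt. It held 16.2, 13.9, 22.7 and 23.6 RPM at 50k and 37.4, 31.6, 57.0 and 36.7 at 5k, a log2 difference of 1.05. The groups did not overlap in summed reads. It had 1, 1, 2 and 2 peaks at 50k and 2, 2, 3 and 3 at 5k, and its highest peak held 12.4 to 16.2 against 13.4 to 21.8 RPM, ranges that overlap. By clusters the difference was 0.25, with a limma adjusted p of 0.537.

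Of the 12 genes named as lower, 5 were mitochondrial and 7 lay elsewhere. They were chosen by the same rule, so separate groups were a condition for naming them. All 7 passed with totals without the mitochondrial genome and 4 passed by clusters. ENSG00000202198.1, at chr6:52860643-52860739 on the plus strand, spans 97 nt and had a single peak in each of the 8 libraries, so its value did not move with the number of peaks. It held 163, 146, 179 and 137 RPM at 50k and 96.7, 87.0, 99.3 and 102 at 5k. Every 5k library lay below every 50k library, and the difference was -0.69 (SE 0.08) on the log2 scale, with a limma adjusted p of 5.31e-06. In the 500-cell libraries it held 66.2 to 94.8, without crosslinking 175 and 227, and in the hnRNPA1 libraries 8764 and 8792.

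The other 3 that passed by clusters were longer. The gene at chr14:35180053-35182154 (minus) held 29.0, 29.8, 30.1 and 30.6 RPM at 50k and 16.0, 19.7, 19.7 and 19.1 at 5k. The gene at chr2:200796136-200819628 (minus) held 26.7, 22.7, 27.7 and 22.5 against 17.5, 16.7, 13.2 and 16.9. The gene at chr6:150140061-150184311 (minus) held 28.1, 28.4, 30.4 and 26.6 against 20.5, 21.4, 14.6 and 19.8. In all 3 the groups were separate, as the rule for naming required.

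The remaining 3 named as lower did not pass by clusters. The gene at chr12:7052978-7053048 (plus), 71 nt long, held 34.1, 25.2, 32.9 and 28.1 RPM at 50k and 15.0, 16.9, 19.6 and 16.5 at 5k. It had 2 or 3 peaks in each 50k library and 1 in each 5k library, while its highest peak held 10.97 to 18.2 against 15.0 to 19.6. Its direction turned by clusters, to 0.13 with a limma adjusted p of 0.769. Another gene is listed within these positions, so the reads of the locus cannot be assigned to 1 gene. That other gene held 9.18 and 7.88 RPM in the 50k libraries with RecJ and 21.8 in 5k replicate 2 with RecJ. The gene at chr9:35657795-35657961 (minus) held 117 ± 27.7 against 73.5 ± 7.46 (SD, n = 4 each). It had 3, 5, 3 and 6 peaks at 50k and 3 in each 5k library, and its highest peaks overlapped, at 26.1 to 41.5 against 24.5 to 32.2. A second gene is listed there on the same strand, at chr9:35657791-35657961, so the reads cannot be assigned to 1 gene. The gene at chr13:45911360-45915314 (minus) held 41.7 ± 3.94 against 27.7 ± 4.88 (SD, n = 4 each).

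Short genes as a class varied more than others. Of 221 genes tested with a span under 400 nt, 1 was higher and 8 were lower with totals without the mitochondrial genome, where 1.54% of all genes outside it were higher and 1.36% lower. Of the 8, 2 cover the same positions on chr9. By clusters 1 of 233 was higher and 2 were lower, beside 0.498% and 0.228% of all genes outside the mitochondrial genome. The SD of their log2 differences was 0.427, against 0.253 over all genes outside the mitochondrial genome.

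Among the 10 genes of highest read share outside the mitochondrial genome, 3 were called higher and 3 lower, with differences from -0.51 to 0.26 on the log2 scale. The gene of highest share, at chrX:73041026-73072543 (minus), held 22040, 22390, 22110 and 21623 RPM at 50k and 20799, 22317, 21032 and 21215 at 5k. The groups overlapped, and the difference was -0.05, which did not pass. By clusters it was -0.16 (limma adjusted p = 0.0102) and with totals without the mitochondrial genome -0.11 (limma adjusted p = 0.046), and both passed. The gene at chr11:65266537-65273409 (plus) held 5228, 5493, 5486 and 5184 against 4042, 4400, 4251 and 3905. Its groups were well apart, and the difference of -0.37 was -0.38 by clusters, where it also passed. The gene at chrX:107965468-107975600 held 2467, 2739, 2670 and 2420 against 1950, 2237, 2291 and 2154, also lower by both measures.

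The 3 abundant genes called higher passed by summed reads but not by clusters. They were at chr14:21677591-21735709 (0.26), chrX:73165318-73230982 (0.22) and chr1:21133210-21502264 (0.23 on the log2 scale). The gene at chr14:21677591-21735709 held 1963, 2035, 2030 and 1870 RPM at 50k and 2343, 2498, 2435 and 2168 at 5k. The third abundant gene called lower, the 70 nt gene at chr11:62609212-62609281, did not pass by clusters either, where its difference was -0.05.

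The 100 genes of highest read share together held 26.7% ± 0.633 of the reads at 50k and 22.8% ± 0.409 at 5k (SD, n = 4 each). The groups did not overlap (exact two-sided permutation p = 0.0556, adjusted p = 0.222 over 4 measures). Without the mitochondrial genome the shares were 16.0% ± 0.274 and 15.5% ± 0.463, and the groups overlapped.

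The balance of called genes varied between chromosomes. With totals without the mitochondrial genome, chr19 had 20 genes higher and 1 lower of 779 tested, and chr22 had 11 higher and 0 lower of 287. Their median differences were both 0.05. On chr13, 2 of 215 were higher and 10 lower, with a median of -0.08, and on chr6 9 of 584 were higher and 18 lower. Over all 11652 genes outside the mitochondrial genome 179 were higher (1.54%) and 159 lower (1.36%), with a median of -0.02. The 9 higher genes on chr6 are thus near that share. By clusters chr22 (0.08) and chr19 (0.07) again had the highest medians and chr13 (-0.06) the lowest outside the mitochondrial genome. These are descriptions without a test, and what the genes of a chromosome share was not tested.

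**Figure D4:**
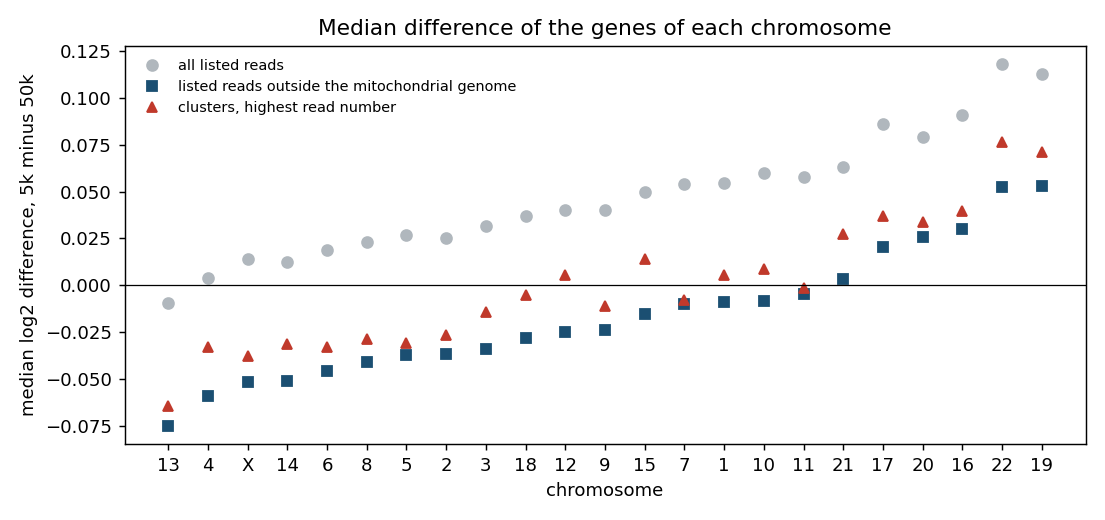
Median log2 difference in read share, 5k minus 50k (y axis), over the genes tested on each chromosome outside the mitochondrial genome (x axis, ordered by the squares). Circles use all listed reads, squares the reads outside the mitochondrial genome and triangles clusters; the squares run from -0.08 on chr13 to 0.05 on chr22 and chr19, and chr13 is lowest under all 3.

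The balance of directions also differed between spans of a gene's peaks, with no steady order from short to long. Of genes with spans of 3 to 10 kb, 8 of 1647 were higher and 37 lower with totals without the mitochondrial genome, while of those with spans of 30 to 100 kb 94 of 3730 were higher and 30 lower. Between these, at 10 to 30 kb, 40 of 3092 were higher and 45 lower, and over 100 kb 31 of 2208 were higher and 32 lower. Under 1 kb 2 of 391 were higher and 8 lower, and at 1 to 3 kb 4 of 584 and 7. Over all genes outside the mitochondrial genome 1.54% were higher and 1.36% lower. The classes of 10 to 30 kb and over 100 kb lie near that share. From the shortest class to the longest the median log2 differences were -0.05, -0.09, -0.08, -0.03, 0.01 and -0.01. By clusters 3 were higher and 2 lower of 419 under 1 kb, and 0 and 2 of 622 at 1 to 3 kb. At 3 to 10 kb the numbers were 1 and 6 of 1689, and at 10 to 30 kb 13 and 10 of 3132. At 30 to 100 kb the numbers were 28 and 3 of 3750, and over 100 kb 14 and 4 of 2229. Beside these stand 0.498% higher and 0.228% lower over all genes outside the mitochondrial genome by clusters. Read share moved with the calls too: 143 of the 179 higher genes and 78 of the 159 lower ones outside the mitochondrial genome were among the 2913 genes of highest read share. The part of span and read share in the calls was not tested.

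No gene was called by its share of peaks, among those with at least 5 peaks on average. Genes with fewer were not tested, among them many mitochondrial genes. The short genes at chr12:120730963-120731040, chr12:7052978-7053048 and chr9:35657795-35657961 were not tested either. Of 9787 genes tested by peaks per 100000 listed peaks, 0 were called by limma (0%), and 676 had an unadjusted p under 0.05. The genes called higher by read share had a median difference in peak share of 0.12 on the log2 scale, and those called lower -0.23. Few genes were listed in every library of 1 cell number only. Of 17007 genes listed in any of the 8 libraries, 11787 were in all 8. In all 4 libraries of 5k cells and none of 50k were 9 genes, at most at 1.39 RPM, and the reverse held for 14 genes, at most at 1.97.

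The 2 RecJ states use separate libraries at both cell numbers, though no label says that these came from separate cells or pulldowns. Of the 226 genes called higher without RecJ and tested in both states, 210 had the same sign with RecJ, and of 66 called lower 53 did. Of the 53 called lower outside the mitochondrial genome, 40 (75.5%) kept their sign. These are shares of all listed reads, so the lower mitochondrial share raises the other genes in both states. Over all 11148 genes tested in both, 64.3% had the same sign and Pearson's r across genes was 0.27. It was 0.50 over the 4249 genes with at least 50 RPM, of which 71.7% had the same sign. Genes of 1 library are not independent replicates. The number called was 293 without RecJ (2.55%) and 30 with RecJ (0.265%), and 23 genes were called in both, 13 of them outside the mitochondrial genome. Of the 23, 22 had the same sign in both states, and of the 13, 12 did.

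The difference between cell numbers itself differed between the RecJ states in 3 of 11477 genes (0.0261%; limma interaction term, 488 at an unadjusted p under 0.05). All 3 were short genes on the minus strand. At chr11:62609212-62609281, the RPM were 6125 and 7087 at 50k and 3998 and 3350 at 5k without RecJ, and 8463 and 8451 at 50k and 7061 and 8038 at 5k with RecJ. At chr10:103124632-103124701 they were 478 and 423 against 677 and 906 without RecJ, and 576 and 531 against 263 and 427 with RecJ. At chr14:50329498-50329568 they were 73.0 and 88.5 against 74.7 and 46.8, and 44.9 and 37.1 against 180 and 87.6. By clusters 0 genes were called by limma for this term, 501 had an unadjusted p under 0.05, and the 3 had adjusted p-values of 1.

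In the first and the second of these genes the number of listed peaks moved with the sums, and in the third it did so in part. The gene at chr10:103124632-103124701 had 2, 2, 3 and 3 peaks at 50k and 3, 4, 1 and 2 at 5k, while its highest peak held 243, 213, 241 and 201 against 247, 246, 263 and 251 RPM. The gene at chr11:62609212-62609281 had 4, 5, 5 and 6 peaks at 50k and 3, 2, 4 and 5 at 5k, and its highest peak ranged from 1528 to 1853 and from 1345 to 1833. A second gene is listed over the same positions of that strand, at chr11:62609122-62609282, so its reads cannot be assigned to 1 gene. The gene at chr14:50329498-50329568 had 4, 5, 3 and 3 peaks at 50k and 3, 4, 5 and 5 at 5k. With RecJ both its peak number and its sums were higher at 5k. At 5k without RecJ 3 peaks held 74.7 RPM and 4 held 46.8. Its highest peak itself ranged from 12.4 to 18.2 and from 11.8 to 36.4.

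**Figure D5:**
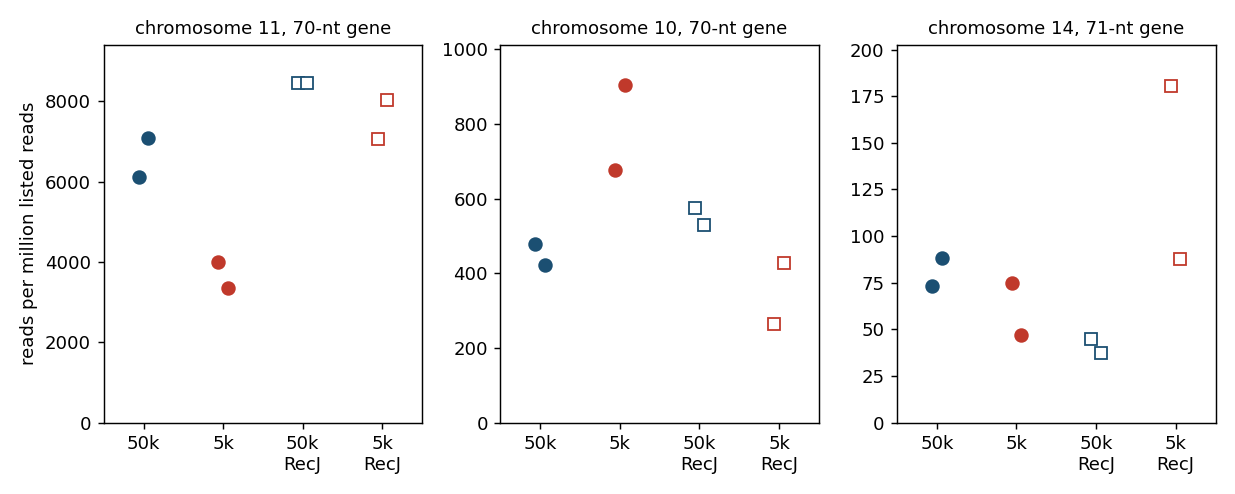
Summed RPM (y axis) of the 3 genes whose difference between cell numbers itself differed between RecJ states, with 1 panel per gene, by cell number and RecJ state (x axis). Points are libraries, blue for 50k and red for 5k, filled without RecJ and open with RecJ; in the panel of the chromosome 10 gene the 5k libraries are higher without RecJ (677 and 906 against 478 and 423) and lower with RecJ (263 and 427 against 576 and 531).

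At the level of single sites, all 15 called sites with peaks at both cell numbers were mitochondrial and lower at 5k. A site is a stretch covered by overlapping peaks of the 8 libraries on 1 strand. Its value in a library is the highest RPM of a single peak in it, and 68651 sites passed the filter. Of these, 27 were called by limma (0.0393%), 7 higher and 20 lower (0.0291%). All 7 higher sites and 5 of the lower ones had peaks at 1 cell number only; such a site passes the filter only through the group where it is high and had to differ, so these 12 calls count as no evidence of a direction. Of the 67 mitochondrial sites tested, 62 had a negative difference, with a median of -0.45 on the log2 scale. All 17 sites of the dominant gene at chrM:1704-2900 were negative and 12 were called.

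The 15 called sites with peaks at both cell numbers were among 68594 such sites tested, and differed by -0.41 to -0.74 on the log2 scale. The site chrM:11051-11154 held 114, 113, 120 and 112 RPM at 50k and 73.2, 69.2, 64.2 and 67.0 at 5k. The site chrM:2393-2444 held 2312, 2294, 2493 and 2265 against 1399, 1484, 1303 and 1490. At the first site of the dominant gene, chrM:1704-1748, the values were 4196, 4106, 4453 and 3981 against 2644, 2695, 2663 and 2799. In none of these 3 did the groups overlap. The calls depended on the settings: 0 sites with peaks at both cell numbers were called by limma with a 4 times lower pseudocount or with peaks of p below 1e-05. With totals without the mitochondrial genome 8 such sites were called, and with the replicate number as a block 6, all mitochondrial and lower. With voom weights 8 such sites were higher, none of them mitochondrial, and 33 lower, 29 of them mitochondrial. The 4 libraries without RecJ alone gave 10 higher, none of them mitochondrial, and 30 lower, 25 of them mitochondrial. Those with RecJ gave 4 higher, none of them mitochondrial, and 15 lower, 13 of them mitochondrial. Without the filter on low values 669 such sites were higher and 476 lower, and 59 of all these were mitochondrial. With 1 library left out there were 4 to 19, all lower; they were 5 without 50k replicate 1 or 2 (no RecJ), and 6, 5, 5 and 4 without each 5k library in turn.

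The 12 sites listed at 1 cell number are given as a description. They had a peak in all 4 libraries of 1 cell number and in none of the other. The lists hold only peaks that the caller accepted, so a missing peak is not a measured 0 and no fold is given. The most abundant of 7 sites listed only at 5k was chrX:73070352-73070396 (minus), with 60.3, 47.7, 51.5 and 56.9 RPM. It lies within the nuclear gene of highest read share. The nearest listed peak of the 50k libraries lay 85 to 194 nt away and held 58.2 to 146 RPM. The site was listed in 3 of 4 500-cell libraries, at 57.3, 80.3 and 61.7, and in both libraries without crosslinking, at 347 and 340.

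The site chr1:28833866-28833937 (plus) was listed at 12.6, 11.8, 11.1 and 14.9 RPM at 5k and at 31.7 to 35.9 in all 4 libraries of 500 cells. The nearest peak of the 50k libraries was 26 to 27 nt away, at 13.2 to 14.2. The other 5 sites listed only at 5k were chrX:107967059-107967158, chr14:21707224-21707327, chr20:17941450-17941537, chr20:17944171-17944221 and chr9:134276924-134277034, with means from 7.14 to 20.2. Of the 5 sites listed only at 50k, the highest were chrM:12658-12726 (38.7, 30.2, 41.9 and 30.0) and chr1:245012417-245012490 (14.1, 14.7, 13.8 and 14.7). The other 3 lay at chr17:74557843-74557894, chr6:111215290-111215409 and chr5:138665522-138665627, with means of 7.33, 6.50 and 6.44.

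Sites listed at 1 cell number in every library were a small part of all sites. Of 1243148 sites, 653134 (52.5%) were listed in a single library and 63234 (5.09%) in all 8. Listed in all 4 libraries of 5k and none of 50k were 1224 sites (0.0985%), and in all 4 of 50k and none of 5k 1469 (0.118%). Their median read shares were low, at 1.34 and 1.17 RPM. Any of the 4 libraries of 500 cells listed 66.2% of the sites found only at 5k and 53.4% of those found only at 50k. All 4 listed 1.80% and 0.681%. The hnRNP C libraries without crosslinking listed 28.8% and 24.0%. The same shares over all sites are not given here, so these percentages are a description only.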

How the data were processed

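The deposited values are CLIPper peak lists, as the file names say, 1 per library, with no header. Each peak has a p-value that the authors' peak caller gave it and a name that joins an Ensembl gene identifier to 2 numbers. The last of these was read as reads over the peak, a meaning no source states. The submitters' processing notes name hg19, bcl2fastq, STAR 2.7.3a and UMI-tools 1.0.1. The annotation release is not given in the sources used here, and 0 identifiers could be matched to names.

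Shares were tested as log2(share + 1 RPM, or + 0.5 peak per 100000 peaks) with limma 3.58.1 in R 4.3.3 (lmFit and eBayes with trend), the RecJ state as a block and Benjamini-Hochberg adjustment over all features; a fold on this scale understates the change of low genes. Genes and sites had to be listed in at least 4 libraries and average at least 2 RPM; genes by peak share needed at least 5 peaks on average. Since a gene passing through 1 group only must differ, sites listed at 1 cell number are described without a fold. Single values per library were tested by exact permutation within RecJ states. The procedure was tested on simulated data. Tables were made with Python 3.11.15, pandas 2.3.3 and numpy 2.4.6.

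The genes named were the 12 per direction with the largest change among those called, not overlapping between groups and averaging at least 20 RPM, with the most abundant genes and the mitochondrial genes beside them. For sites it was up to 6 per direction averaging at least 10 RPM; the other called sites are named too, chosen after their values were seen. The comparison and lists were chosen with earlier results of these data known. Lists that need gene names, including markers of the cell line, could not be applied, so the labelled cell type was not checked against markers. Alternatives were other scalings, filters, pseudocounts, weights, peak thresholds, clusters, RecJ states apart, the replicate number as a block and leaving out each library. Totals without the mitochondrial genome, and clusters for the interaction, were added after seeing the data. So were the permutation tests of the mitochondrial read share and of the ratio of its 2 highest genes. The test of the share of the 100 highest genes outside the mitochondrial genome was added then too. The sequences of the sites are not printed, as no genome of this build was used here.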

Additional observations from a re-analysis of the deposited data

Results flagged for a closer look

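The difference between cell numbers differed between the RecJ states in 3 short genes by the limma interaction term. It was 0.68 on the log2 scale at chr11:62609212-62609281 (adjusted p = 0.00144), -1.52 at chr10:103124632-103124701 (adjusted p = 1.88e-04) and 2.04 at chr14:50329498-50329568 (adjusted p = 0.00162). Counted by clusters the values were 0.19, 0.10 and 0.90, each with an adjusted p of 1. The number of overlapping peaks listed moved with the sums in the first and the second of these genes. In the third it did so in part, at 4, 5, 3 and 3 at 50k and 3, 4, 5 and 5 at 5k. Leaving out 50k replicate 2 with RecJ gave 7 such genes, leaving out 50k replicate 1 with RecJ gave 5, and leaving out 5k replicate 2 without RecJ gave 1.

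In 11 of 146 groups of 4 libraries, 1 library was flagged as apart from the others (Dixon's test). Chance gives about 1 in 20 in independent groups. These groups share libraries and hold related values, so they cannot be set against that number. The mitochondrial read share of 50k replicate 1 with RecJ was 14.1%, the next being 13.2%. The ratio of the dominant mitochondrial gene to the next most abundant was 14.3 in 5k replicate 2 with RecJ, against 11.5 or less in the other 5k libraries. The median peak width of 50k replicate 1 without RecJ was 57 nt, against 58 nt in the other 50k libraries. As those were all equal, any difference would have been flagged.

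Among genes outside the mitochondrial genome, ENSG00000132613.10 held 89.7 RPM in 50k replicate 2 without RecJ. The gene at chr6:43194211-43196810 held 45.2 in 5k replicate 2 with RecJ, the gene at chr14:35180053-35182154 held 16.0 in 5k replicate 1 without RecJ, and the gene at chr13:45911360-45915314 held 47.5 in 50k replicate 1 with RecJ.

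Among mitochondrial genes, the gene at chrM:3482-4130 held 218 RPM in 5k replicate 2 with RecJ, against 147 or less in the other 5k libraries. The gene at chrM:8401-8507 held 87.6 in 5k replicate 1 without RecJ, and the gene at chrM:14788-15720 held 341 in 50k replicate 1 without RecJ. The site chrM:8892-8965 held 87.4 in 50k replicate 1 without RecJ, against 103 or more in the other 50k libraries.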

How the results depend on the processing

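The mitochondrial read share kept its direction under every alternative run, from -0.55 to -0.50 on the log2 scale with 1 library left out; relabelling without RecJ strata gave the same -0.52 (exact permutation p = 0.0286, adjusted p = 0.0429 over 3 measures), and for the ratio of the 2 highest mitochondrial genes -0.37 with the same p-values. With 1 library left out that ratio ranged from -0.45 to -0.29. The called genes by read share numbered 293 without RecJ, 30 with RecJ, 315 with median centring, 101 by clusters and 353 with totals without the mitochondrial genome, and 318 to 675 with 1 library left out. Called sites numbered 1637 without the filter on low values, 5 and 58 with a 4 times lower and higher pseudocount, 9 with peaks of p below 1e-05, 41 with median centring, 41 with voom weights, 75 with inner intervals, and 10 to 37 with 1 library left out. Without a library of 5k cells they were 10, 10, 11 and 15: sites listed only at 5k then miss the minimum of 4 libraries, and the called sites with peaks at both cell numbers fell from 15 to 4 to 6, of which the cause was not tested. The split of calls turned mostly to sites higher at 5k with p below 1e-05 (6 and 3), the lower pseudocount (3 and 2), inner intervals (45 and 30), no filter (958 and 679), and without 50k replicate 1 (17 and 5), replicate 2 (13 and 5) or replicate 1 with RecJ (15 and 12); except without the filter, every higher site in these was listed at 5k only. Genes by peak share stayed at 0 called by limma except for 3 without 50k replicate 2 with RecJ. The interaction had 0 calls by clusters and 1 to 7 with 1 library left out. At the gene at chr12:7052978-7053048 the cluster value was 0.13, and at chr10:103124632-103124701 the interaction turned to 0.10; the causes were not tested beyond the peak numbers given. The peak number difference turned to 0.027 with p below 1e-05 and ranged from -0.12 to 0.065 with 1 library left out, and listed reads from -0.21 to 0.076. Overlap between cell numbers was 33.9% when 50% of the peak had to be covered and 55.9% with peaks of p below 1e-05. Same-numbered replicates did not deviate together (6 correlations of deviations, -0.016 to 0.058), and with the replicate block 728 genes and 13 sites were called. Sequencing depth is unknown, which limits every statement on peaks not listed.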
